A study of Mus musculus with 9 samples.

Results

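The 10 genes described here are the D-type cyclins Ccnd1, Ccnd2 and Ccnd3, their kinase partners Cdk4 and Cdk6, the CIP/KIP inhibitors Cdkn1a (p21), Cdkn1b (p27) and Cdkn1c (p57), and the INK4 inhibitors Cdkn2c (p18) and Cdkn2d (p19). They were chosen by name, for their role in the exit from quiescence, and not for a measured value, although earlier results of these data were known. They are 10 of the 32287 genes counted. All 10 were found in the data under 1 gene ID each. D-type cyclins accumulate in cells that receive growth factors, bind CDK4 or CDK6 and start the phosphorylation of the retinoblastoma protein, which releases E2F factors and with them the genes of DNA replication. INK4 proteins bind the 2 kinases themselves, whereas CIP/KIP proteins bind cyclin-CDK complexes, stop the cell when they are abundant, and also help cyclin D to assemble with its kinase. In the ventricular-subventricular zone (vSVZ), quiescent neural stem cells (NSCs) enter the cycle as activated NSCs, which give rise to transit-amplifying progenitors (TAPs) and then to neuroblasts (NBs) that migrate to the olfactory bulb.

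Single cells were profiled with droplet 3′ RNA sequencing, which counts each captured transcript once by its molecular identifier (UMI), so that a count does not scale with the length of a gene. All mice carried TiCY, in which tamoxifen activates Cre in cells that express Tlx (Nr2e1) and marks NSCs and their progeny with eYFP. The KO mice (TiCY-IFNAGRKO) also lacked the receptors for type I and type II interferon. WT young mice were 16 weeks old, with tamoxifen at 10 weeks and a chase of 6 weeks, and KO young mice were 16 weeks old, with tamoxifen at 7 weeks and a chase of 9 weeks. WT old mice were 80 weeks old, with tamoxifen at 71 weeks, and KO old mice were 92 to 105 weeks old, with tamoxifen at 85 and 98 weeks, both with a stated chase of 9 weeks. The chase thus differed between WT young and the other groups, and for the KO old mice injected at 98 weeks the age and the chase add up to more than the labelled range. KO old mice were also older than WT old mice. Genotype at old age, and the difference between the KO and WT age changes, thus cannot be told apart from this age gap. From the vSVZ, eYFP+ and GLAST+ cells were sorted, while olfactory bulb, striatum and rostral migratory stream were pooled as the rest of the brain (RoB), from which eYFP+ and eYFP-/PSANCAM low cells were taken. CD45+, Ter119+ and O4+ cells had been gated out, so the microglia-like and oligodendrocyte-like cells below are those that passed this gate. Each group was 1 reaction with 2 mice, told apart by hashtag antibodies, so that group and reaction cannot be told apart.

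After filtering, 18055 cells were kept, 5820 and 2396 from young and old WT and 6461 and 3378 from young and old KO mice, with a median of 5026 to 7393 UMIs per cell, lowest in WT young. Ifnar1, a targeted receptor gene, stood at 21.2 and 28.6 CPM (UMIs of a gene, scaled to counts-per-million of all UMIs in the sum) in the WT young and WT old libraries and at 8.08 and 6.56 in KO young and KO old. Ifngr1 stood at 46.9 and 85.4 in WT and at 2.88 and 4.40 in KO, so both were lower in the KO libraries without being at 0. Only 30 cell barcodes occurred in more than 1 library. A hashtag was called for 32.2% of cells, and for 10.8% of neuroblast-like and 10.0% of TAP-like cells, which is why levels by cell class are given per library and comparisons of age and genotype per mouse only where at least 20 cells of a mouse were called.

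Cells were clustered without the 10 genes and without 36 further genes of the G1/S pathway, and clusters were named from fixed markers. Classes still rest on genes that move with the cell cycle, such as Mcm2 and Mki67, so the direction of a step between them is partly set by how the classes were found. The classes used were quiescent NSC-like (4989 cells, of which only those with a vSVZ hashtag entered the values below), activated NSC-like (1111), TAP-like (1236), neuroblast-like (6299), neuron-like (662), olfactory ensheathing-like (2024), microglia-like (329), endothelial-like (104), oligodendrocyte-like (134) and oligodendrocyte precursor (OPC)-like (82). The activated class consisted of an Egfr-rich cluster (452 cells, 66.2% with an eYFP UMI) and a replicating cluster led by Hells, Rrm2 and Mcm3 (659 cells, 90.7%). A further cluster of 972 cells, led by Prss56, Crym, Thbs4 and Ecel1, raised 7 of the 8 quiescent NSC markers but held 1 marker of another class and 0 quiescent NSC markers among its 10 leading genes, and so stayed unnamed. An eYFP UMI was found in 50.3% of its cells, against 6.96% of quiescent NSC-like cells. It is called the Thbs4- and Ecel1-rich cluster. The eYFP share refers to all 972 cells. Its levels, D-cyclin shares and class comparisons below rest only on its cells with a vSVZ hashtag (WT young 198, WT old 63, KO young 190, KO old 95). Library sums of the Egfr-rich and replicating clusters held all their cells, with or without a hashtag. The part of this unequal selection in the differences between clusters was not tested. The paper used hashtags to take astrocytes from outside the subventricular zone out of its lineage cells. How many of the quiescent NSC-like cells here are astrocytes rather than NSCs was not tested.

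Levels are in CPM of all UMIs of a class in a library. Values for 4 libraries are always given in 1 order, young and old of WT, then young and old of KO.

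Ccnd2 (ENSMUSG00000000184.12, chr6:127125162-127152193 in GRCm38, minus strand) encodes cyclin D2, known for its need in adult neurogenesis. In the quiescent NSC-like class it stood at 49.0, 73.1, 64.6 and 66.1 CPM, and in the Thbs4- and Ecel1-rich cluster at 222, 187, 201 and 194. In the Egfr-rich cluster it reached 903, 822, 929 and 962. The replicating cluster held the highest level, at 3514, 3826, 3650 and 3668. Every library thus gave the same order of these 4 states, with no overlap between them. TAP-like cells stood at 2228, 2152, 2145 and 2163, and neuroblast-like cells at 1845, 1754, 1819 and 1844. NBs thus held Ccnd2 close to the TAP level. Outside the lineage, olfactory ensheathing-like cells held 270.2 ± 51.2 (SD, n = 4) and microglia-like cells 23.2 ± 19.2. Neuron-like cells differed between libraries, with 213, 1.45, 72.0 and 8.57 CPM. The summed level of the 8 NB markers in the same neuron-like sums was 2439.7, 1228, 1561 and 1410.5, highest in the library with most Ccnd2, and its part in the Ccnd2 level was not tested.

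Ccnd1 (ENSMUSG00000070348.5, chr7:144929931-144939925, minus strand) encodes cyclin D1, a classical target of mitogen signals. It was near its lower limit in the quiescent NSC-like class, at 0.875, 3.94, 0.378 and 5.001 CPM from 1, 11, 1 and 19 UMIs. The Thbs4- and Ecel1-rich cluster overlapped with it, at 1.79, 4.30, 3.47 and 4.08. In the Egfr-rich cluster the level was 107, 80.4, 76.3 and 102, and in the replicating cluster 89.5, 44.5, 63.9 and 64.5. TAP-like cells stood at 26.3, 6.05, 24.1 and 10.3, and neuroblast-like cells at 0.567, 1.07, 0.852 and 1.011. Of the lineage states, the 2 activated clusters thus held the highest Ccnd1 levels, apart from the TAP-like class and all others. Levels that overlapped with those of the Egfr-rich cluster were measured outside the lineage, in microglia-like cells (69.8, 66.5, 87.5 and 91.9) and in olfactory ensheathing-like cells (80.5, 58.2, 74.0 and 40.8). OPC-like cells reached the 20-cell minimum in the KO old library alone, where Ccnd1 was at 566 CPM, from 226 UMIs in 40 cells (exact Poisson 95% interval 495 to 645, for counting error only). Neuron-like cells stood at 4.74 ± 5.44 (SD, n = 4).

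Ccnd3 (ENSMUSG00000034165.16, chr17:47505051-47599691, plus strand) encodes cyclin D3, best known from lymphocytes and other differentiating cells. Its levels were low in every class. They were 14.9, 13.3, 14.7 and 11.3 in the quiescent NSC-like class, 21.3, 32.9, 22.4 and 24.8 in the Egfr-rich cluster, and 6.81, 4.28, 4.59 and 7.75 in neuroblast-like cells. The highest mean belonged to endothelial-like cells, with 46.0 ± 9.99 (SD, n = 3 libraries), and from rank 2 downward each class overlapped its neighbour in the order of means.

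**Figure D1:**
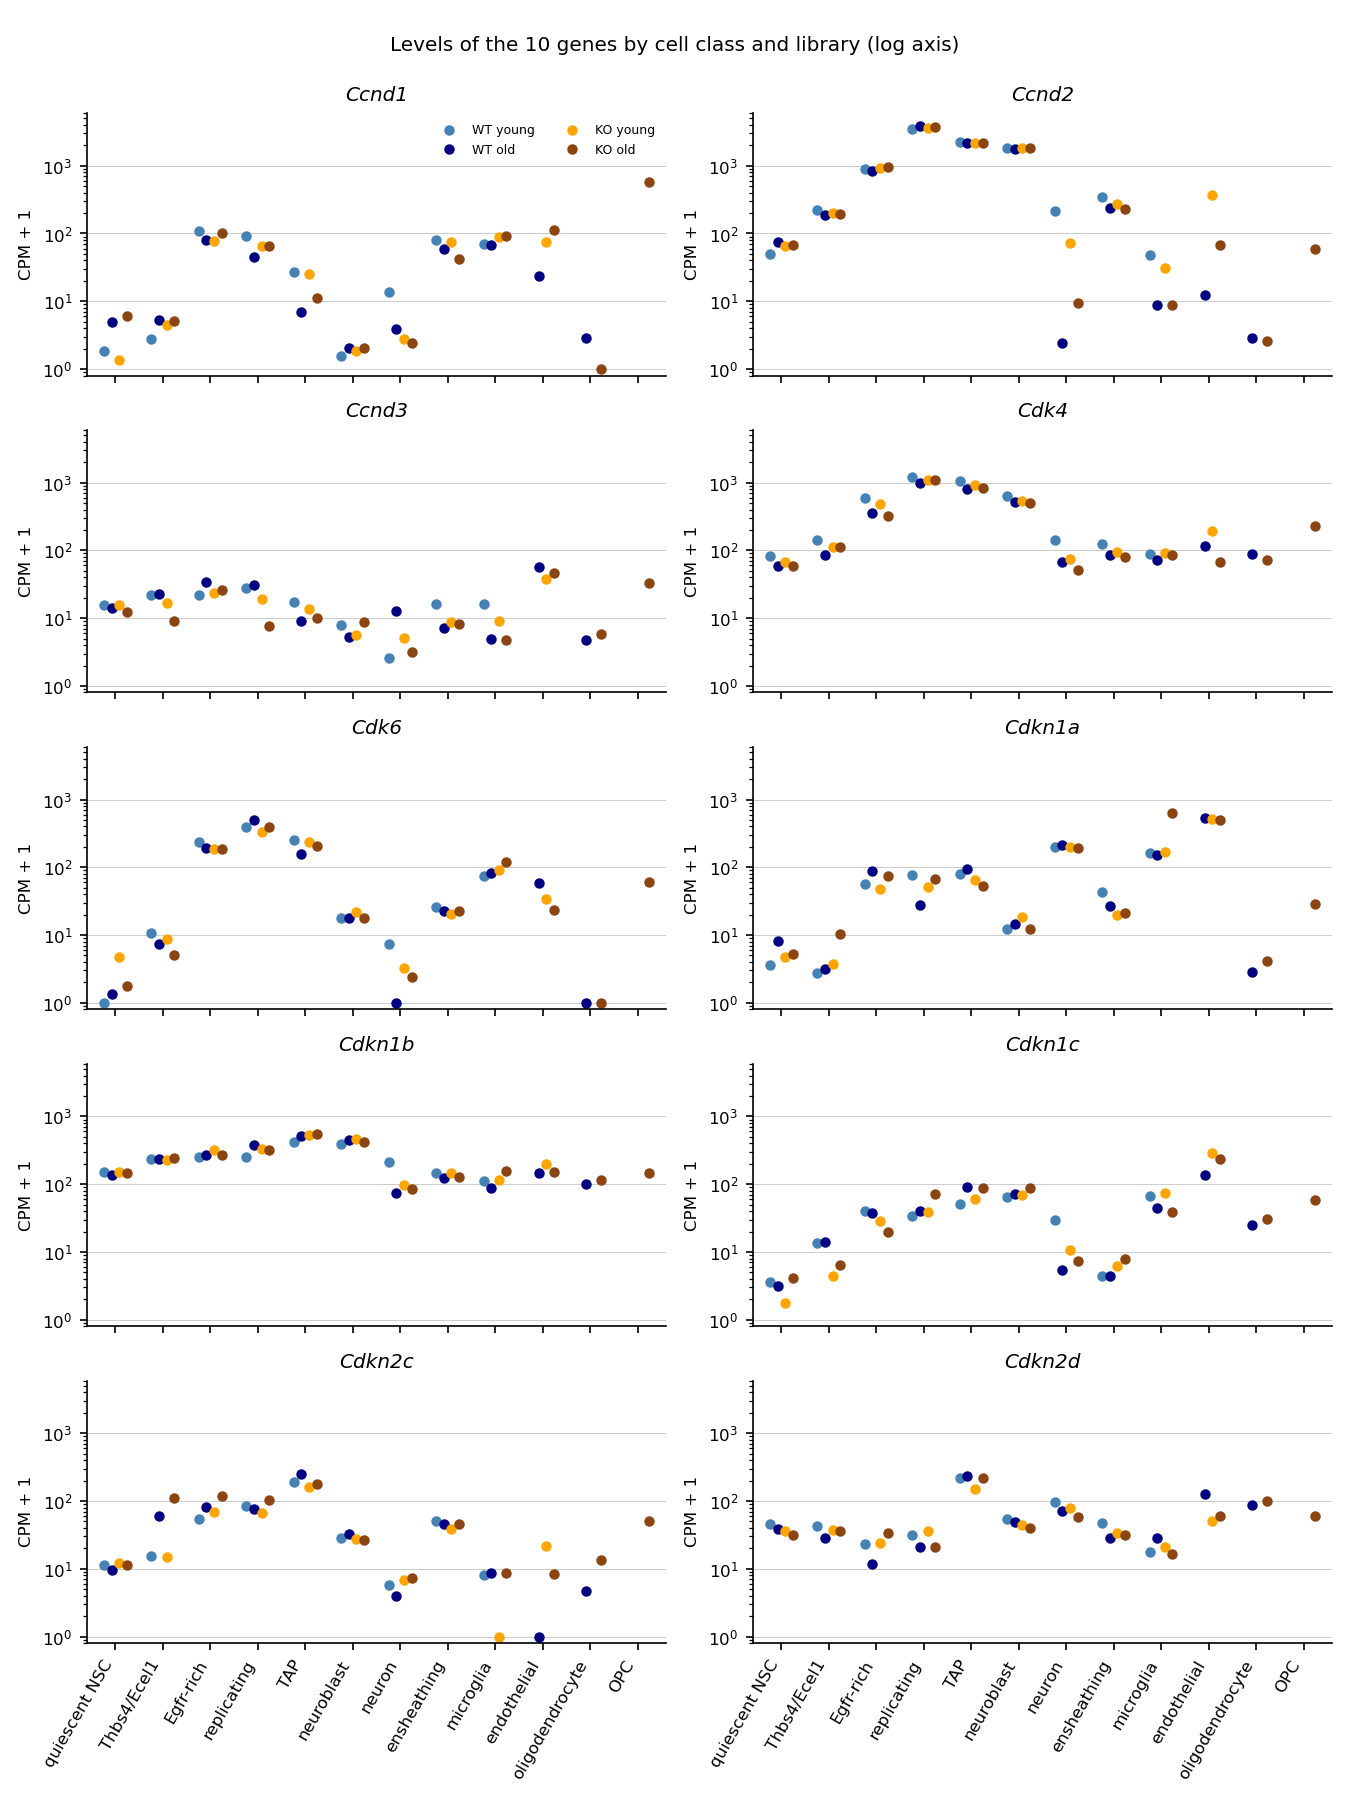
Level of each of the 10 genes (CPM plus 1, log axis) in 12 cell classes or clusters, with 1 point per library of at least 20 cells. Ccnd2 climbs from about 63.2 in the quiescent class to 3665 in the replicating cluster, Ccnd1 is raised in the Egfr-rich and replicating clusters but not in neuroblasts, and Cdkn2c in the Thbs4- and Ecel1-rich cluster splits into old and young libraries.

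Cdk4 (ENSMUSG00000006728.12, chr10:127063534-127067920, plus strand) and Cdk6 (ENSMUSG00000040274.11, chr5:3341485-3531008, plus strand) encode the kinases that the D cyclins activate. Cdk4 was present in quiescent NSC-like cells at 81.3, 58.0, 67.2 and 57.1 CPM and stood at 589, 356, 484 and 324 in the Egfr-rich cluster and at 1226, 976, 1103 and 1076 in the replicating cluster. Cdk6 had a much wider range. It was found with 0, 1, 10 and 3 UMIs in the quiescent NSC-like class, where the 0 of WT young allows a level of up to 2.62 CPM. The Thbs4- and Ecel1-rich cluster stood at 9.86, 6.45, 7.64 and 4.08, the Egfr-rich cluster at 235, 190.0, 188 and 185, and the replicating cluster at 394, 497, 325 and 391. TAP-like cells kept both kinases, with 1044, 816, 916 and 839 for Cdk4 and 252, 155, 234 and 207 for Cdk6. They parted in neuroblast-like cells, where Cdk4 stayed at 638, 521, 526 and 504 while Cdk6 was at 17.1, 16.6, 20.8 and 16.8. Among the non-neural classes Cdk6 was highest in microglia-like cells, at 91.6 ± 19.5 (SD, n = 4), without overlap with the endothelial-like class below it (37.2 ± 17.6, n = 3). Cdk4 in the non-lineage classes lay between means of 79.2 and 124, and each of these classes overlapped its neighbours in the order of means. The level of Cdk4 in OPC-like cells of KO old was 225 and that of Cdk6 60.1.

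Cdkn1a (ENSMUSG00000023067.14, chr17:29090976-29100727, plus strand) encodes p21, which p53 and stress signals induce. It was low in quiescent NSC-like cells (2.62, 7.16, 3.78 and 4.21 CPM) and in the Thbs4- and Ecel1-rich cluster (1.79, 2.15, 2.78 and 9.51). The Egfr-rich cluster held more, with 55.4, 87.7, 46.0 and 74.4, as did TAP-like cells, with 79.0, 94.7, 64.4 and 51.4. Neuroblast-like cells stood at 11.1, 13.4, 17.2 and 11.5, whereas neuron-like cells were at 197, 209, 200.5 and 191, with no overlap between these 2 classes. The highest levels lay outside the lineage, in endothelial-like cells (WT old 532.5, KO young 515 and KO old 499). Microglia-like cells stood at 159, 149, 169 and 628, so that KO old was the exception. That value rests on 164 UMIs in 43 cells (exact Poisson 95% interval 536 to 732), and the 1 KO old mouse with enough called cells gave 582 from 38 cells, against 67.1 to 201 in the 5 other mice with at least 20 cells. The summed level of 16 genes known to respond to tissue dissociation was 48076, 52011, 44839 and 53515 in the same microglia-like sums, and its part in the Cdkn1a value was not tested.

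Cdkn1b (ENSMUSG00000003031.14, chr6:134920401-134925513, plus strand) encodes p27, an inhibitor typical of resting and newly differentiated cells. It had a mean of 146 ± 6.16 CPM in quiescent NSC-like cells and of 235 ± 8.65 in the Thbs4- and Ecel1-rich cluster (SD, n = 4 each), and these 2 did not overlap. TAP-like cells had the highest level, at 416, 520.0, 531 and 549, followed by neuroblast-like cells at 395, 443, 465 and 414. All non-lineage classes lay at means between 105 and 164.

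Cdkn1c (ENSMUSG00000037664.13, chr7:143458339-143461050, minus strand) encodes p57, an imprinted inhibitor. The quiescent NSC-like class held the lowest mean of the classes, 2.17 ± 1.03 CPM from 3, 6, 2 and 12 UMIs. The Egfr-rich cluster stood at 39.5, 36.5, 27.9 and 18.4, TAP-like cells at 49.1, 90.7, 60.2 and 86.9, and neuroblast-like cells at 63.5, 69.6, 68.2 and 85.9. Endothelial-like cells were highest, at 136, 290.4 and 231 in WT old, KO young and KO old, apart from all other classes.

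Cdkn2c (ENSMUSG00000028551.14, chr4:109660876-109667189, minus strand) and Cdkn2d (ENSMUSG00000096472.2, chr9:21288410-21291407, minus strand) encode the INK4 proteins p18 and p19, inhibitors that are specific to CDK4 and CDK6. Both peaked in TAP-like cells, Cdkn2c at 193, 249.9, 158 and 175 CPM and Cdkn2d at 218, 229.8, 152 and 217. Their paths to this peak differed. Cdkn2c stood at 10.5, 8.59, 11.3 and 10.5 in the quiescent NSC-like class and was already at 53.2, 80.4, 67.2 and 118 in the Egfr-rich cluster. Cdkn2d stood at 45.5, 38.3, 34.7 and 30.3 in the quiescent NSC-like class and at 22.0, 11.0, 23.0 and 33.1 in the Egfr-rich cluster, lower in 3 of the 4 libraries. In the Thbs4- and Ecel1-rich cluster Cdkn2c divided the libraries by age, with 14.3 and 13.9 in the young libraries (WT, KO) and 60.2 and 110.1 in the old ones. After the TAP stage both inhibitors were low again, Cdkn2c at 27.6 ± 2.80 and Cdkn2d at 45.7 ± 6.16 in neuroblast-like cells (SD, n = 4). Cdkn2d was higher in neuron-like cells (75.0 ± 15.4), where Cdkn2c was at 4.99 ± 1.54, and in oligodendrocyte-like cells (87.1 in WT old and 99.8 in KO old).

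Of the 10 genes, 7 overlap a gene on the opposite strand and 0 one on the same strand in GENCODE vM21. The strand setting of the counting is not given in the sources used here, so reads of such a partner cannot be told apart from those of these 7 genes.

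The mix of the D cyclins was read as each one's share of all D-cyclin UMIs. Ccnd2 made up 79.5% ± 2.56 in the quiescent NSC-like class, 91.0% ± 2.53 in the Thbs4- and Ecel1-rich cluster, 88.5% ± 1.27 in the Egfr-rich cluster, 97.7% ± 0.618 in the replicating cluster, 98.7% ± 0.596 in TAP-like cells and 99.6% ± 0.0832 in neuroblast-like cells (SD, n = 4 libraries each). The rest of the quiescent mix was mainly Ccnd3, at 17.5% ± 4.204, and that of the Egfr-rich cluster mainly Ccnd1, at 8.94% ± 1.25. From quiescent NSC-like to neuroblast-like cells, Ccnd2 thus made up most of the D-cyclin UMIs in every state. In neuron-like cells its share ran from 9.09% of 11 UMIs in WT old to 93.7% of 142 UMIs in WT young. In microglia-like cells the order was turned round. Ccnd1 held 52.6%, 85.0%, 69.8% and 88.9% of the D-cyclin UMIs there, of 95, 20, 63 and 27 UMIs in all, with exact Clopper-Pearson 95% intervals of 42.1 to 63.0%, 62.1 to 96.8%, 57.0 to 80.8% and 70.8 to 97.6%. Each of these intervals lies above the Ccnd1 share in olfactory ensheathing-like cells, which was 14.5 to 21.0% with upper bounds of at most 23.2%. The NB markers in the microglia-like sums stood at 287, 7.82, 412 and 15.3 CPM, highest in the young libraries, which also had the larger Ccnd2 shares (35.8 and 23.8%, against 10.0 and 7.41%). Their part in these shares was not tested. OPC-like cells of KO old held 86.3% Ccnd1 (81.5 to 90.2%, of 262 UMIs). Such intervals cover counting error only, and no test between classes was made.

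**Figure D2:**
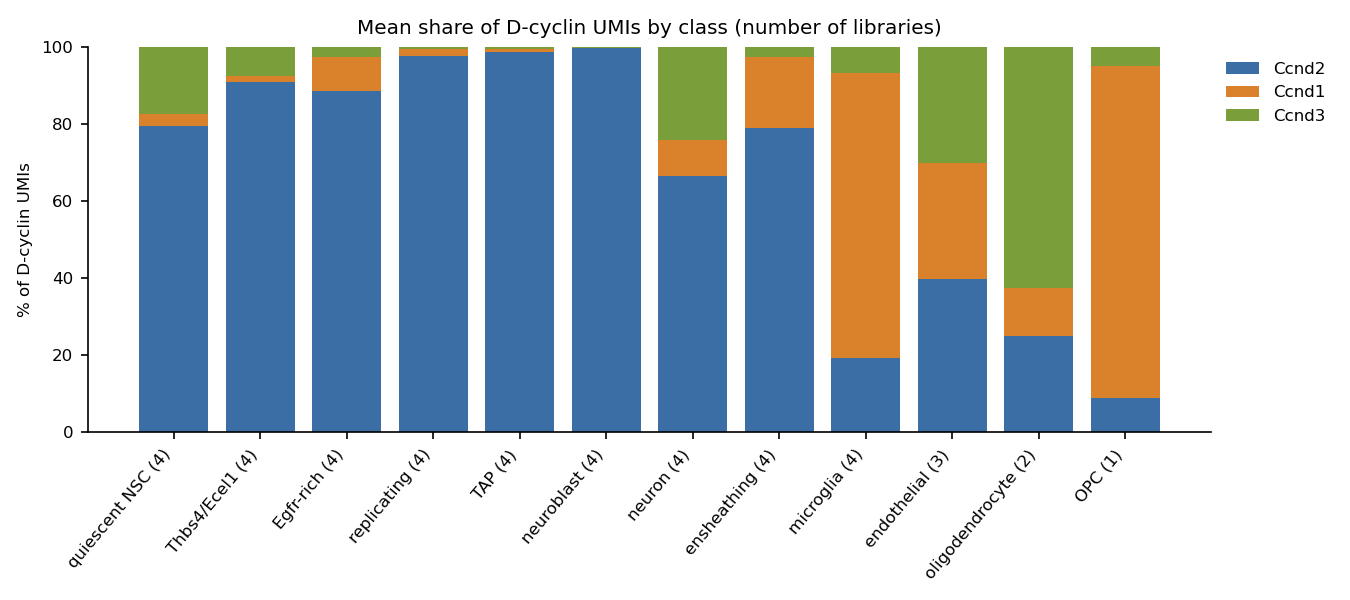
Mean share of D-cyclin UMIs (%) from Ccnd2, Ccnd1 and Ccnd3 in each class, with the number of libraries in brackets. Ccnd2 fills 79.5% or more of the bars of the lineage classes up to neuroblasts, while Ccnd1 fills 74.1% of the microglia-like bar and 86.3% of the OPC-like bar, which is 1 library.

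Activated NSC-like cells were compared with quiescent NSC-like cells first. An eYFP UMI was found in 80.7% of all activated NSC-like cells and in 6.96% of all quiescent NSC-like cells. The part of astrocytes among the quiescent NSC-like cells was not tested. The differences are thus between these classes, and cannot be read as activation of NSCs alone. All 10 genes differed between activated and quiescent NSC-like cells, 9 higher and 1 lower (edgeR's quasi-likelihood test, Benjamini-Hochberg adjusted p under 0.05, n = 4 libraries). Of all genes tested, 68.7% were called in this comparison, 35.7% as higher and 33.0% as lower, so a call on its own says little, and the direction and size carry the description. The median log2 difference of the 10 genes was 3.43, against 0.05 over all genes. Cdk6 showed the largest difference, with a log2 value of 7.49 ± 0.31 (SE), against a quiescent level of 1.23 that rests on few UMIs. Ccnd2 was higher by 4.999 ± 0.17, Ccnd1 by 4.46 ± 0.30 and Cdk4 by 3.35 ± 0.11. Of the inhibitors, Cdkn1c was higher by 3.83 ± 0.27, Cdkn1a by 3.51 ± 0.21, Cdkn2c by 2.78 ± 0.17 and Cdkn1b by 0.78 ± 0.10. Cdkn2d was the 1 gene that fell, by 0.70 ± 0.18 on the log2 scale (adjusted p = 0.00446). Ccnd3 rose by 0.50 ± 0.20 (adjusted p = 0.0415), and this call was lost without WT young (adjusted p = 0.12), without WT old (0.18), without KO old (0.062) and in 4 other settings, within a range of 0.0055 to 0.43 over 13 alternatives.

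The G1/S pathway list, which holds 36 genes other than the 10, moved in the same comparison with 28 of 33 tested genes called, 24 higher and 4 lower, and a median log2 difference of 1.82. Mycn, a growth-promoting transcription factor, was higher by 8.13 ± 0.23, the E2F family member E2f1 by 4.75 ± 0.21, the kinase subunit Cks1b by 3.89 ± 0.16 and the E2F partner Tfdp1 by 2.15 ± 0.12. Of 12 p53 targets, 9 were tested and 6 called, 5 of them higher, with a median of 0.46. The dissociation list was called for 12 of 16 genes, all higher, with a median of 1.11, and its part in the Cdkn1a difference was not tested.

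The Thbs4- and Ecel1-rich cluster allowed the step to be divided, and this division was chosen after the clusters had been seen. Against quiescent NSC-like cells, 5 of the 7 genes tested were called there, all 5 higher, with 37.3% of all genes called (18.8% higher, 18.5% lower). Cdkn2c was higher by 2.02 ± 0.33, Cdkn1c by 1.72 ± 0.53, Ccnd2 by 1.52 ± 0.11, Cdk4 by 0.64 ± 0.12 and Cdkn1b by 0.55 ± 0.09. Ccnd3 (0.09 ± 0.27) and Cdkn2d (-0.18 ± 0.17) did not pass, and Ccnd1, Cdk6 and Cdkn1a were too rarely counted to be tested. The median of the 7 tested genes was 0.64, against 0.02 over all genes. The Cdkn1c call was lost without WT young (adjusted p = 0.058, range 0.00082 to 0.058 over 7 alternatives). Cdkn2c kept its call without each library, although its 4 values in the cluster follow age, and lost it under DESeq2 (adjusted p = 0.095, range 3.1e-16 to 0.095 over 9 alternatives). Without single libraries its difference ran from 1.16 to 2.62. Of the G1/S pathway genes, 6 of 23 tested were called, with Mycn higher by 6.15 ± 0.38, Tfdp2 by 1.34 ± 0.14 and Rbbp4 by 0.48 ± 0.09, and with Rb1, the retinoblastoma gene, lower by a log2 value of -0.84 ± 0.13. Of 8 p53 targets tested edgeR and DESeq2 called 0, with 0 at an unadjusted p under 0.05 and a median of -0.26. The dissociation list was called for 15 of 16 genes, all higher, with a median of 2.17.

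From there to the Egfr-rich cluster, 8 of 10 genes were called, 7 higher and 1 lower, with 44.4% of all genes called (22.1% higher, 22.4% lower). Ccnd1 and Cdk6, which had been at the limit of counting before, made the largest differences, 4.66 ± 0.27 and 4.63 ± 0.19. The summed 8 markers of OPCs, the cells with the highest Ccnd1 level, were also higher in the Egfr-rich cluster. They stood at 196, 263, 216 and 549.6 CPM there and at 35.0, 47.3, 36.8 and 24.5 in the Thbs4- and Ecel1-rich cluster. In OPC-like cells of KO old they stood at 11603. Of these 8 markers, Olig1 and Olig2 were among the 10 leading genes of the Egfr-rich cluster itself. By library, 4, 3, 1 and 4 of the 8 were at 0 in that cluster. The part of these markers in the differences was not tested. Cdkn1a was higher by 3.84 ± 0.30, Ccnd2 by 2.05 ± 0.10, Cdkn1c by 1.85 ± 0.31, Cdk4 by 1.85 ± 0.11 and Cdkn2c by 0.87 ± 0.23. Cdkn2d fell by 0.76 ± 0.22 on the log2 scale, and Ccnd3 (0.45 ± 0.27) and Cdkn1b (0.12 ± 0.10) did not pass. The median over the 10 genes was 1.85, against 0.04 over all genes. The Cdkn2c call was lost without WT young (adjusted p = 0.052) and without KO young (0.0705), with DESeq2 and without the library block, with a range of 2.0e-06 to 0.18 over 8 alternatives. The Cdkn2d call was lost with DESeq2 (adjusted p = 0.062, range 0.0020 to 0.062). Among the G1/S pathway genes 15 of 26 were called, 13 higher, with Mycn up by 2.40 ± 0.13, Cks1b by 1.88 ± 0.25, Tfdp2 by 0.68 ± 0.12 and Gsk3b, a kinase that marks cyclin D1 for degradation, by 0.50 ± 0.09. Of the p53 targets 6 of 9 were called, all higher, and of the dissociation list 10 of 16, 8 of them higher.

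The replicating cluster differed from the Egfr-rich cluster in 4 of the 10 genes, 3 higher and 1 lower, while 52.4% of all genes were called (23.9% higher, 28.5% lower). The share of the 10 genes called was thus below that of all genes. Ccnd2 was higher by 2.03 ± 0.09, Cdk4 by 1.35 ± 0.10 and Cdk6 by 0.97 ± 0.10, whereas Ccnd1 fell by 0.38 ± 0.12 on the log2 scale. None of the 5 inhibitors was called by edgeR, with log2 differences of at most 0.48, 1 of them (Cdkn1b) at an unadjusted p of 0.046, and DESeq2 called 0 of them as well. The Ccnd1 call was lost without WT old (adjusted p = 0.057) and without KO old (0.12), with DESeq2 (0.13) and without the library block (0.13), within 0.0099 to 0.13 over 8 alternatives. Cdkn1c gained a call with no count filter (0.48, adjusted p = 0.029), without WT young (0.84, adjusted p = 0.011) and without WT old (0.56, adjusted p = 0.042), within 0.011 to 0.57, and Cdkn2d without KO old (0.65, adjusted p = 0.016), within 0.016 to 0.75. G1/S pathway genes were called in 22 of 32 tests, 18 higher. Among the higher ones were the G1/S cyclin Ccne2 by 3.46 ± 0.26, E2f1 by 3.54 ± 0.21 and Cks1b by 2.03 ± 0.12, while Mycn was at -1.38 ± 0.10. All 16 dissociation genes were called, 15 of them lower, and 4 of 9 p53 targets, 2 in each direction.

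TAP-like cells were set against activated NSC-like cells next. Here 9 of 10 genes were called, 6 higher and 3 lower, with 41.4% of all genes called (20.5% higher, 20.9% lower). All 5 inhibitors were called higher, 4 of them in all 11 alternatives and Cdkn1a in 2 of 11. Cdkn2d was higher by 3.02 ± 0.18, Cdkn2c by 1.41 ± 0.13, Cdkn1c by 1.02 ± 0.14, Cdkn1b by 0.96 ± 0.08 and Cdkn1a by 0.38 ± 0.14. Of the D cyclins, Ccnd1 fell by 1.73 ± 0.19 and Ccnd3 by 0.58 ± 0.19 on the log2 scale, and Ccnd2 (0.04 ± 0.09, adjusted p = 0.78) did not pass. At clustering resolution 0.5, however, Ccnd2 was called lower (-0.64 ± 0.05, adjusted p = 4.4e-09, range 4.4e-09 to 0.96 over 11 alternatives). Cdk4 was higher by 0.39 ± 0.10 and Cdk6 was at -0.30 ± 0.11. The Cdk4 call was lost with library size alone (0.19, adjusted p = 0.12) and without the library block (0.35, adjusted p = 0.15), and at resolution 0.5 Cdk4 was at -0.13 (adjusted p = 0.073), within 2.5e-05 to 0.15. The smallest of these calls depended on single libraries and on the processing. Ccnd3 (adjusted p = 0.0300) lost its call without WT young (0.063), WT old (0.052) or KO young (0.086), Cdk6 (0.0489) without WT young (0.067), WT old (0.16) or KO young (0.051), and Cdkn1a (0.0499) without WT young (0.16), WT old (0.12) or KO young (0.33). Over 11 alternatives the adjusted p ranged from 0.0076 to 0.086 for Ccnd3, from 0.00028 to 0.16 for Cdk6 and from 0.0023 to 0.51 for Cdkn1a. All 3 also lost their calls with DESeq2 (0.061, 0.082 and 0.22) and without the library block (0.067, 0.14 and 0.14), and Ccnd3 at resolution 0.5 (0.072). Cdkn1a lost its call in 4 further settings, with library size alone (0.29), at resolution 0.5 (0.057), with all classes in 1 fit (0.11) and with the 10 genes kept in the clustering (0.51, log2 value 0.13). Among the G1/S pathway genes 17 of 34 were called, 14 higher, led by Cks2 (4.44 ± 0.14), the S- and G2-phase cyclin Ccna2 (4.06 ± 0.15), E2f8 (2.94 ± 0.25) and Cks1b (1.91 ± 0.12). Of the p53 targets 3 of 11 were called, 2 of them higher, and of the dissociation list 14 of 16, 13 of them lower.

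On the step from TAP-like to neuroblast-like cells 9 of 10 genes were called and all 9 were lower, with 61.7% of all genes called (30.6% higher, 31.1% lower). The median log2 difference of the 10 genes was -1.69, against 0.02 over all genes. Ccnd1 fell by 4.86 ± 0.29 on the log2 scale, Cdk6 fell by 3.68 ± 0.10, Cdkn2c fell by 2.81 ± 0.09, Cdkn1a by 2.42 ± 0.15, Cdkn2d by 2.13 ± 0.09 and Ccnd3 by 1.25 ± 0.21. The other 3 fell by less than 1, Cdk4 by 0.78 ± 0.06, Ccnd2 by 0.30 ± 0.05 and Cdkn1b by 0.26 ± 0.07. Cdkn1c (0.10 ± 0.10, adjusted p = 0.40) did not pass. With all classes in 1 fit, Ccnd2 (adjusted p = 0.57, range 5.3e-08 to 0.57 over 11 alternatives) and Cdkn1b (0.28, range 0.00012 to 0.28) lost their calls. Neuroblast-like cells thus held Ccnd2, Cdk4, Cdkn1b and Cdkn1c within 1 log2 unit of the TAP level. Of the G1/S pathway genes 28 of 34 were called, 25 lower, with Ccna2 at -6.99 ± 0.15, Cks2 at -5.32 ± 0.10, E2f3 at -4.16 ± 0.15 and Cks1b at -3.81 ± 0.08. Of the p53 targets 8 of 11 were called, 6 lower, and of the dissociation list 12 of 14, 10 higher.

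Neuron-like cells differed from neuroblast-like cells in 8 of the 9 genes tested, 2 higher and 6 lower, with 70.7% of all genes called (37.3% higher, 33.4% lower). Cdkn1a was higher by 3.71 ± 0.13 and Cdkn2d by 0.57 ± 0.13. Ccnd2 fell by 5.26 ± 0.46 on the log2 scale, Cdk6 fell by 3.17 ± 0.37, Cdk4 fell by 2.98 ± 0.15, Cdkn1c fell by 2.88 ± 0.26, Cdkn2c by 2.45 ± 0.25 and Cdkn1b by 2.15 ± 0.18. The Ccnd2 difference rests on neuron-like levels that ran from 1.45 to 213 and stayed between -6.38 and -4.76 over 11 alternatives. Ccnd3 (-0.57 ± 0.47, adjusted p = 0.28) passed only without WT old (-1.16, adjusted p = 0.049, range 0.049 to 0.77 over 10 alternatives), and Ccnd1 was not tested. The G1/S pathway list had 16 of 26 genes called, 11 lower, with Cdc25a at -3.29 ± 0.28, Cks1b at -3.07 ± 0.30 and Mycn at -2.03 ± 0.16, and with Rb1 higher by 1.33 ± 0.14. Of the p53 targets 7 of 8 were called, 3 higher and 4 lower, and of the dissociation list 13 of 16, 7 higher and 6 lower.

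**Figure D3:**
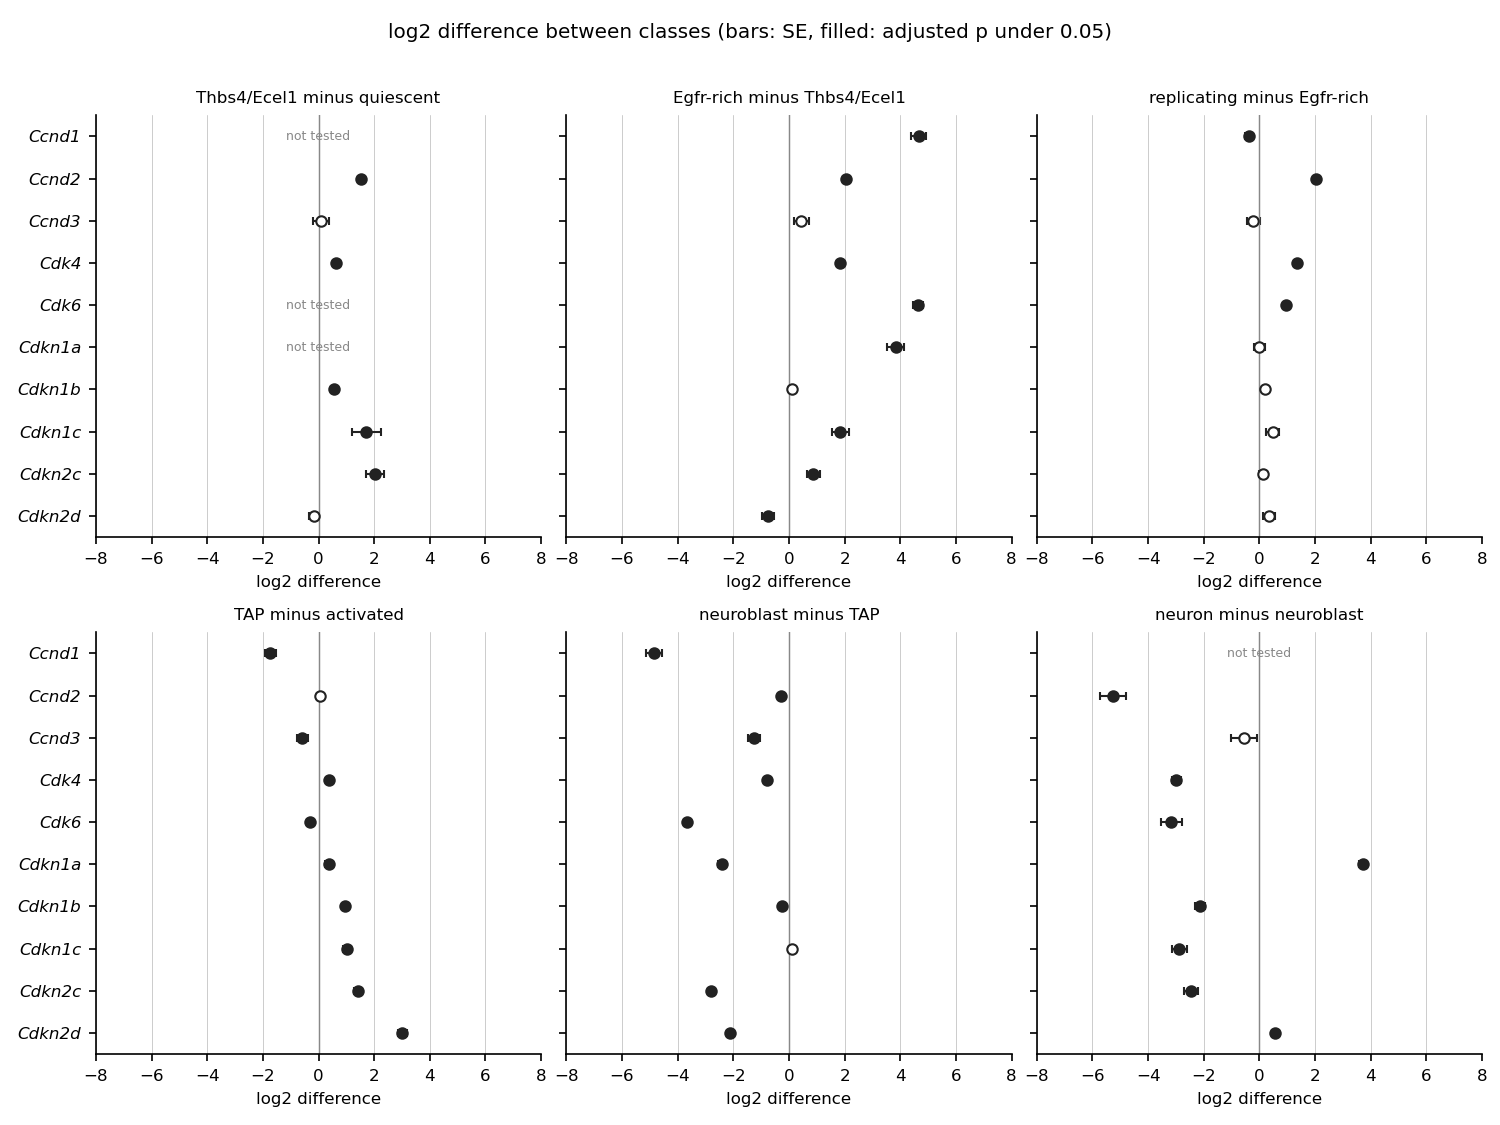
log2 difference between neighbouring classes for each of the 10 genes, with the SE as bars over 4 libraries and filled points for an adjusted p under 0.05. The filled points of the steps up to the replicating cluster lie to the right, except Cdkn2d in the Egfr-rich cluster and Ccnd1 in the replicating cluster, the 5 inhibitors lie to the right from activated NSC-like to TAP-like cells (the Cdkn1a call was lost in most alternatives), and 9 filled points lie to the left from TAP-like to neuroblast-like cells.

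Age and genotype were compared per mouse, 2 mice in each group. In the Thbs4- and Ecel1-rich cluster Cdkn2c was higher in old mice of both genotypes. The WT young mice stood at 5.43 and 18.7 CPM (2 and 14 UMIs) and the WT old mice at 69.0 and 51.4 (16 and 12 UMIs). The KO young mice stood at 12.9 and 14.7 (8 and 12 UMIs) and the KO old mice at 109 and 111 (39 and 42 UMIs). The 4 old mice thus lay above the 4 young mice, with no overlap. Old WT mice exceeded young WT mice by a log2 value of 2.10 ± 0.46 (adjusted p = 0.022), rank 30 by p of 6201 genes, with 1.10% of genes called. In KO the difference was 3.002 ± 0.35 (adjusted p = 2.4e-05), rank 1 of 6201 genes, with 0.5% called. Cdkn2c was the 1 gene called of the 5 tested in each genotype. The WT call was lost without WT young mouse 1 (1.69, adjusted p = 0.084), without WT old mouse 1 (1.88, adjusted p = 0.16) and with a stricter hashtag call (1.92, adjusted p = 0.15), within a range of 0.0070 to 0.16 over 7 alternatives. DESeq2 gave Cdkn2c no adjusted p in WT and called 0 of the 10 genes there. The KO call held in all 8 alternatives, with log2 values from 2.55 to 3.10 and an adjusted p of at most 0.030.

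In quiescent NSC-like cells of the same mice Cdkn2c did not follow age. The WT young mice had 13.4 and 8.62 CPM and the WT old mice 5.68 and 9.93. The KO young mice had 14.0 and 9.09 and the KO old mice 7.31 and 14.3, so that the groups overlapped. The age change in the Thbs4- and Ecel1-rich cluster minus that in the quiescent class was therefore tested itself, a comparison added after these values had been seen. It came to 3.12 ± 0.59 in KO (adjusted p = 0.000345, 0.553% of genes called, 1 of 6 tested genes of the 10) and to 2.49 ± 0.80 in WT (adjusted p = 0.39, 0.0565% called, 0 of 6 by edgeR and by DESeq2, with 2 at an unadjusted p under 0.05). The KO call was lost without KO young mouse 1 (2.73, adjusted p = 0.13) and under DESeq2 (3.18, adjusted p = 0.25), within 0.00010 to 0.25 over 7 alternatives. In the same KO comparison edgeR called 4 of the 16 dissociation genes, all higher, with 7 at an unadjusted p under 0.05 and a median of 0.59 against 0.02 over all genes, while DESeq2 called 0, and their part in the Cdkn2c value was not tested. In activated NSC-like cells Cdkn2c was at 52.9 and 54.1 in KO young and at 97.4 and 135 in KO old, without overlap, but its log2 difference of 1.12 ± 0.32 did not pass (adjusted p = 0.18). The 8 OPC markers in these activated sums were at 112 and 69.1 in KO young and at 271 and 415 in KO old, and the dissociation list at 8797 and 5876 against 11539 and 14742, both without overlap, and their part in the activated KO values was not tested. The WT young mice stood at 62.9 and 59.1 there, and the 1 WT old mouse with enough cells at 40.5. Neuroblast-like cells overlapped, with 19.1 to 39.1 in the 8 mice.

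Beside the Cdkn2c values in the Thbs4- and Ecel1-rich cluster stand the summed levels of other lists in the same sums. The 8 TAP markers lay between 239 and 298 CPM and the 8 activated NSC markers between 401 and 652, with young and old mice overlapping in both. The 8 NB markers were lower in old mice (202 to 293) than in young mice (309 to 527), and the 8 quiescent NSC markers were higher (18006 to 21734 against 14882 to 16288). The 8 microglia markers were lower in old mice (38.8 to 73.9 against 80.3 to 109). Olfactory ensheathing markers ran from 981 to 1897 and the dissociation list from 4017 to 13477, both overlapping between ages. The eYFP transgene was lower in WT old mice (log2 value -3.58 ± 0.35, adjusted p = 7.2e-07) and did not pass in KO (-0.19 ± 0.21). The part of these shifts in the Cdkn2c difference was not tested. KO old mice stood above WT old mice by 0.87 ± 0.34 for Cdkn2c, which did not pass (adjusted p = 0.53), and the KO age change exceeded the WT age change by 0.90 ± 0.61 (adjusted p = 0.72). The KO old mice were 92 to 105 weeks old and the WT old mice 80, so genotype and age cannot be told apart in either value.

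**Figure D4:**
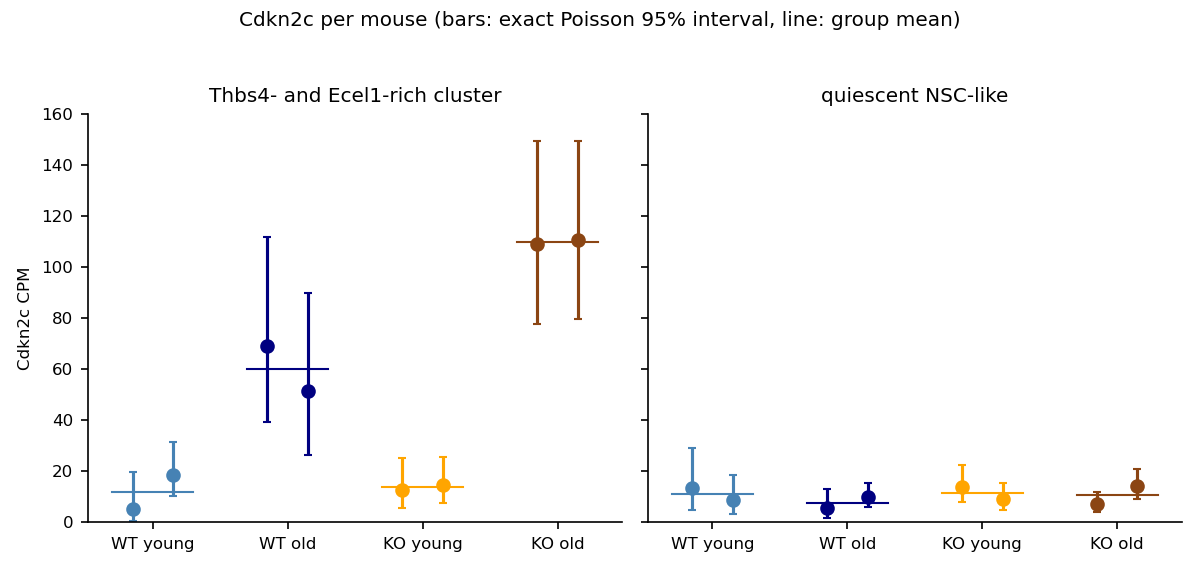
Cdkn2c level (CPM) in each mouse, in the Thbs4- and Ecel1-rich cluster (left) and in the quiescent NSC-like class (right), with exact Poisson 95% intervals as bars and the group mean as a line. In the left panel the 4 old mice lie between 51.4 and 111 and the 4 young mice between 5.43 and 18.7, while in the right panel all 8 mice lie between 5.68 and 14.3.

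The other genes did not pass in the Thbs4- and Ecel1-rich cluster. Cdk4 was at 136 and 142 CPM in WT young and at 64.7 and 103 in WT old, without overlap, and its log2 difference of -0.69 ± 0.26 did not pass (adjusted p = 0.24). In KO it overlapped, with 109 and 115 in young and 101 and 124 in old mice. Ccnd2 lay between 151 and 228 in all 8 mice, and its age differences were -0.21 ± 0.21 in WT and -0.02 ± 0.19 in KO. Cdkn1b lay between 177 and 306 and Cdkn2d between 17.3 and 45.5, and groups overlapped. Genotype gave 0 of 5 called by edgeR in young (0.435% of genes called, 0 at an unadjusted p under 0.05) and at old age (0.0484%, 1 at an unadjusted p under 0.05), as did the difference between the KO and WT age changes (0.0968%, 1 at an unadjusted p under 0.05), and DESeq2 called 0 in these 3 comparisons too. Ccnd1, Ccnd3, Cdk6, Cdkn1a and Cdkn1c had too few UMIs to be tested.

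In quiescent NSC-like cells edgeR called 0 of 6 tested genes in each comparison, and so did DESeq2. The background was 4.54% of all genes for age in WT, 1.84% for age in KO, 0.784% for genotype in young mice, 0.159% for genotype at old age and 0.371% for the difference between the KO and WT age changes. At an unadjusted p under 0.05 there were 2 genes for age in WT and 0 in the 4 others. The 2 were Ccnd2, at 58.1 and 43.1 CPM in WT young against 78.4 and 70.6 in WT old (0.52 ± 0.23, adjusted p = 0.21), and Cdk4, at 98.4 and 70.4 against 51.2 and 61.2 (-0.57 ± 0.21, adjusted p = 0.12). Neither group pair overlapped, yet neither difference passed. In KO, Ccnd2 stood at 64.0 and 65.0 in young and at 76.6 and 53.8 in old mice and Cdk4 at 73.9 and 61.6 against 55.1 and 59.5. Cdkn1b lay between 129 and 177 in the 8 mice, and its differences ran from -0.18 to 0.13 with SEs of 0.13 to 0.16. For Cdkn2c and Ccnd3 the SEs were 0.36 to 0.58 in the 4 age and genotype comparisons. Counting the Thbs4- and Ecel1-rich cluster as quiescent, an alternative chosen after seeing the data, gave calls for Ccnd2 (-0.58, adjusted p = 0.0035) and Cdk4 (-0.85, adjusted p = 0.00022) in WT and for Cdkn2c (1.15, adjusted p = 0.0082) in KO, and turned the direction of Ccnd2 and Cdkn2c. That cluster gave 33 and 30 cells in the WT old mice and 67 and 131 in the WT young mice. In such pooled sums alone, fewer cells of a type and less RNA per cell cannot be told apart. Fitted apart for age in WT, Ccnd2 was at 0.52 in the quiescent class and at -0.21 in the cluster. Cdk4 was at -0.57 and -0.69, and none of these passed.

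**Figure D5:**
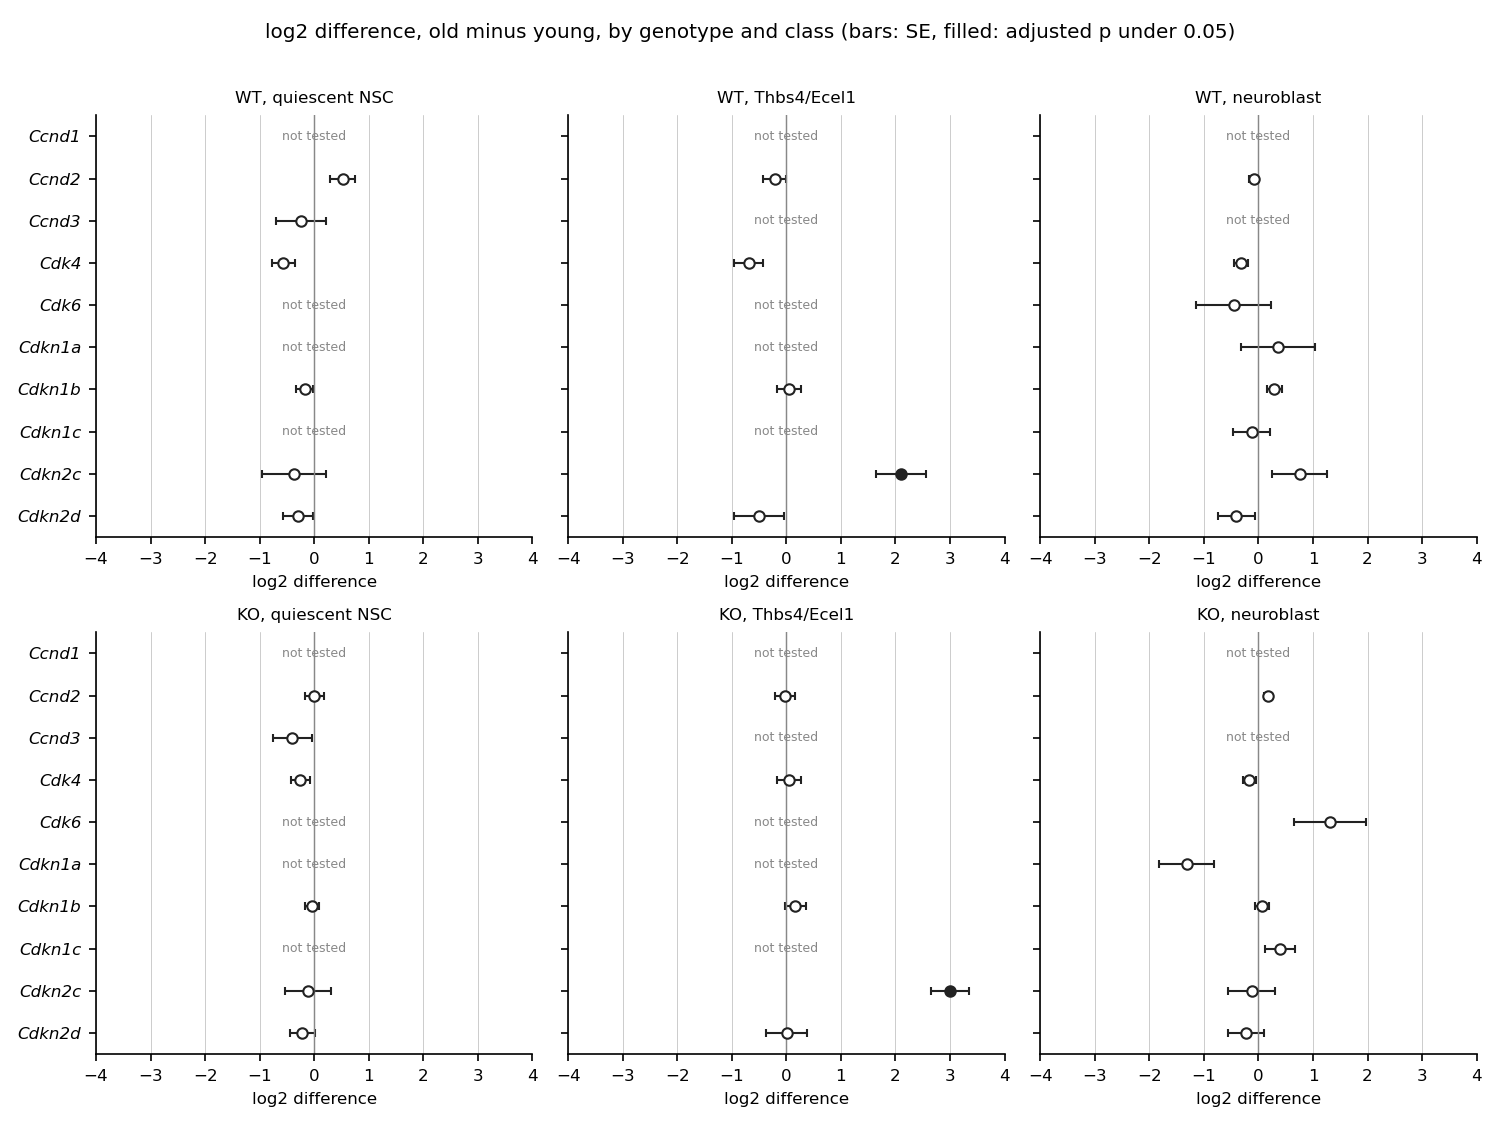
log2 difference between old and young mice for each of the 10 genes in WT (top) and KO (bottom), in quiescent NSC-like cells, the Thbs4- and Ecel1-rich cluster and neuroblast-like cells, with the SE as bars and filled points for an adjusted p under 0.05. The filled points are Cdkn2c in the Thbs4- and Ecel1-rich cluster, at 2.10 in WT and 3.002 in KO, and genes with too few UMIs are marked as not tested.

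Activated NSC-like cells could be compared in KO by age and in young mice by genotype, since only 1 WT old mouse had 20 called cells. Of the 10 genes edgeR and DESeq2 called 0 in both, with 0.396% of all genes called by edgeR for age in KO (Cdk4 and Cdkn2c, 2 of the 10, at an unadjusted p under 0.05) and 0.00% for genotype in young mice (0 of the 10). Ccnd2 was at 1390.5 and 2896 CPM in the KO young mice and at 1485 and 1504 in the KO old mice (-0.53 ± 0.25), and Cdk4 at 625 and 973 against 511 and 478 (-0.70 ± 0.23, adjusted p = 0.27). Both differences depended on single mice. The activated class of the KO young library held 148 Egfr-rich and 240 replicating cells, and that of KO old 94 and 52. The part of this mix in both differences was not tested. Without KO young mouse 1, Ccnd2 (-0.95, adjusted p = 0.0024) and Cdk4 (-0.97, adjusted p = 0.0054) were called, and without KO young mouse 2 the Ccnd2 difference was 0.11, with ranges of the adjusted p from 0.0024 to 1.00 and from 0.0054 to 1.00 over 8 alternatives each. Cdkn1a lay at 60.2 and 67.5 in the WT young mice. The KO mice overlapped, with 43.5 and 60.1 when young and 76.1 and 35.0 when old.

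Neuroblast-like cells gave 0 of 8 called by edgeR and by DESeq2 for age in WT (3.49% of all genes), age in KO (0.430%), genotype at young age (1.65%) and at old age (0.163%), with 2, 3, 5 and 0 of the 10 genes at an unadjusted p under 0.05. Ccnd2 lay between 1527 and 1996 CPM and Cdkn1b between 331 and 476 in the 8 mice. Cdkn1a was at 41.3 and 33.2 in KO young, above the other 6 mice (5.73 to 24.1), and its difference from WT young (1.45 ± 0.48) did not pass (adjusted p = 0.10). These sums hold 31 to 131 cells each, and Ccnd1 and Ccnd3 were not tested. No G1/S pathway gene was called by edgeR or DESeq2 in any of the age and genotype comparisons of the 4 classes, with 13 to 26 of the 36 tested and 0 to 3 at an unadjusted p under 0.05. Among p53 targets edgeR called 1 gene, higher in old WT neuroblast-like cells, where DESeq2 called 0. Of the dissociation list, edgeR called 6 of 12 genes lower in old mice in quiescent NSC-like cells of KO and 1 in WT. There 2 were higher in young KO than in young WT, and 1 was lower in the difference between age changes. For age in KO activated NSC-like cells 1 of 16 was higher, with 11 at an unadjusted p under 0.05. In neuroblast-like cells 3 of 10 were lower in old WT, and 2 in young KO against young WT. DESeq2 called 1 for age in WT quiescent NSC-like cells and 0 in the others named.

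Quiescent NSC-like cells of the RoB were compared with those of the vSVZ within the same 8 mice. The sort gates given above differed between the tissues, so tissue and gate cannot be told apart. Of 7 tested genes 1 was called, Cdkn1a, against 10.7% of all genes. Its level was 2.24 and 2.87 CPM in the vSVZ of WT young and 14.97 and 3.81 in the RoB. The WT old mice had 19.3 and 1.57 in the vSVZ and 10.7 and 42.3 in the RoB. The KO young mice had 4.92 and 2.80 against 8.50 and 4.196, and the KO old mice 1.46 and 7.44 against 3.99 and 11.999. The RoB was higher in 7 of the 8 mice, with a log2 difference of 1.28 ± 0.40 (adjusted p = 0.026). The call was lost without WT young mouse 1 (1.21, adjusted p = 0.053) and without WT old mouse 2 (0.40, adjusted p = 0.73), whose RoB value is the highest, and with DESeq2 or a stricter hashtag call, within 0.0013 to 0.73 over 15 alternatives. Without the mouse block Cdkn1a did not pass the count filter and was not tested, and 0 of the 5 genes tested were called. Olfactory ensheathing markers were higher in the RoB in every mouse (693 to 1602 against 338 to 523 CPM), as were OPC markers (132 to 206 against 25.0 to 64.7), and the part of both in the difference was not tested. Markers of the classes rich in Cdkn1a overlapped between the tissues, those of microglia at 61.2 to 108 against 70.6 to 99.1 and those of endothelial cells at 0 to 13.9 in the RoB against 2.24 to 8.39 in the vSVZ, with 5 to 8 of the 8 endothelial markers at 0 in each sum. Ccnd2 (-0.15 ± 0.13), Ccnd3 (0.21 ± 0.25), Cdk4 (-0.02 ± 0.12), Cdkn1b (-0.01 ± 0.09), Cdkn2c (-0.57 ± 0.34) and Cdkn2d (-0.16 ± 0.16) did not pass. In the G1/S pathway list 1 of 19 genes was called, Rb1 (-0.34 ± 0.10, adjusted p = 0.012), in the p53 list 0 of 8 by edgeR and DESeq2 (2 at an unadjusted p under 0.05), and in the dissociation list 2 of 12, both higher in the RoB.

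Each of the 10 genes was also matched to the 2 genes most like it in level, by Pearson's r of log2(CPM + 5) over 33 class and library sums from 10 classes, among 10438 genes. These sums share libraries and depth, and the values are a description. Cdk4 had the closest matches, Snrpg (0.98), which encodes a splicing protein, and Hmgn2 (0.98), a chromatin protein. Ccnd2 was closest to Ppp1r14b (0.96) and Zfp422 (0.94), Cdkn1b to Mpnd (0.94) and Nfib (0.93), Cdkn1c to Tpt1 (0.93) and Fau (0.92), and Cdk6 to Rbm38 (0.92) and Trp53 (0.91), the p53 gene. Lower values were reached for Cdkn1a with Hprt (0.88) and Zrsr2 (0.84), Cdkn2c with Hmgn5 (0.86) and Plp2 (0.86), Ccnd1 with Slc29a1 (0.85) and Mapkapk2 (0.85), Cdkn2d with Nucks1 (0.84), a chromatin protein, and the cohesin gene Rad21 (0.79), and Ccnd3 with Cutc (0.84) and Bcl2l12 (0.80).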

How the data were processed

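The authors deposited raw UMI counts per gene and barcode, and counts of 4 hashtag antibodies per barcode. The submitters' processing notes name kallisto, bustools, Scanpy 1.6.0 and GRCm38. Of 844265 barcodes, those kept had 1000 to 20000 UMIs, 100 to 6000 genes and less than 10% of their UMIs from mitochondrial genes, and 335 doublets (1.03 to 2.67% per library, called with Scrublet in scanpy) were removed, which left 18055 cells with 18277852 to 49618029 UMIs per library. A multinomial mixture model of the hashtag counts assigned cells to hashtags, separately in each library, and its background started from near-empty barcodes of 5 to 100 UMIs. Cells were clustered with scanpy 1.11.5 and leidenalg 0.10.2 (2000 variable genes, 50 components, 15 neighbours, resolution 1), and clusters of at least 50 cells were named from fixed markers. Python 3.11.15, R 4.3.3 and GENCODE vM21 coordinates were used, and 32158 of 32287 gene IDs had a symbol.

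UMI counts were summed per class and library, or per class and mouse, where at least 20 cells were present, and tested with edgeR 4.0.16 (filterByExpr, TMM factors, quasi-likelihood test, Benjamini-Hochberg over all genes tested, threshold 0.05), with the library as a block between classes and the mouse as a block between tissues. The SE is the log2 difference divided by the square root of the F statistic. DESeq2 1.42.0, library size alone, no count filter, other clusterings and leaving out each library or mouse were alternatives. The fits were checked on simulated data. All 2-mouse groups are single reactions, so p-values measure only the spread between these mice, and p-values between classes that between 4 libraries. The 10 genes and all gene lists were chosen with earlier results of these data known. The clusters set apart and the comparisons that use them were added after seeing the data. All 10 genes are described in each comparison, and up to 4 G1/S pathway genes are named, those with the smallest adjusted p. The sample that the labels put in no group was not used, and 1 item is not reported here.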

Additional observations from a re-analysis of the deposited data

Results flagged for a closer look

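Within each class, a library or mouse was set apart when its gap to the nearest of the others, divided by the range of all, passed Dixon's 95% critical value. This was looked at in 140 groups of values, and 15 were found. For independent, normally distributed values chance alone sets apart about 1 in 20 groups. Some values here rest on few UMIs, and groups share cells, so the number found cannot be set against that rate.

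Of the cyclins and kinases in libraries, Ccnd1 in neuron-like cells was at 12.8 CPM in WT young (8 UMIs), against 1.43 to 2.91 in the others. Cdk4 in neuroblast-like cells was at 638 in WT young, against 504 to 526. Cdk6 was at 20.8 in KO young neuroblast-like cells, against 16.6 to 17.1, and at 235 in the Egfr-rich cluster of WT young, against 185 to 190.0. Among mice, Ccnd3 in neuroblast-like cells was at 15.02 in KO young mouse 1 (8 UMIs), against 0 to 6.02. Cdk6 in quiescent NSC-like cells was at 5.60 in KO young mouse 2 (8 UMIs), against 0 to 1.64.

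Of the inhibitors, Cdkn1a in microglia-like cells was at 628 in KO old, against 149 to 169. In the Thbs4- and Ecel1-rich cluster it was at 9.51 in KO old (7 UMIs), against 1.79 to 2.78. In quiescent NSC-like cells of the vSVZ it was at 19.3 in WT old mouse 1, against 1.46 to 7.44, and in those of the RoB at 42.3 in WT old mouse 2, against 3.81 to 14.97. Cdkn1b in neuron-like cells was at 213 in WT young, against 74.2 to 94.9, and in quiescent NSC-like cells of the RoB at 209.8 in KO young mouse 2 (33 cells), against 134 to 159. Cdkn2c in microglia-like cells was at 0 in KO young (93 cells), where a count of 0 allows up to 5.97, against 6.98 to 7.82 in the others, from 2 to 5 UMIs each. Cdkn2d in TAP-like cells was at 152 in KO young, against 217 to 229.8, and in quiescent NSC-like cells at 54.6 in WT young mouse 2, against 29.7 to 39.2.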

How the results depend on the processing

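Of the results for single genes under alternative settings, 636 kept their direction and side of the threshold, 51 lost it, 10 gained it and 10 turned direction. Of the counts and shares, 303 stayed within 1.5 times or 1 SD and 21 moved. Of the 10 genes, 5 were called from activated NSC-like to TAP-like cells without the library block. There Ccnd2 turned to -0.16 with library size alone, -0.64 at clustering resolution 0.5 (adjusted p = 4.4e-09), -0.029 without WT old and -0.036 without KO old (-0.036 to 0.097 without single libraries), and Cdk4 to -0.13 at resolution 0.5.

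With the Thbs4- and Ecel1-rich cluster counted as quiescent, 2 genes were called for age in WT (Ccnd2 at -0.58), 1 in KO (Cdkn2c at 1.15) and 3 between RoB and vSVZ. Cdkn2c for age in KO quiescent cells was 0.20 without KO young mouse 1 and 0.33 without KO old mouse 1 (-0.68 to 0.33 without single mice), and Ccnd2 for age in KO activated cells 0.11 without KO young mouse 2 (-0.95 to 0.11). For age in WT in the Thbs4- and Ecel1-rich cluster the count was 0 with DESeq2, which gave Cdkn2c no adjusted p, and with the stricter hashtag call, and 0 to 1 without single mice. The age change there minus that in quiescent cells gave 0 in KO with DESeq2 and 0 to 1 without single mice. RoB against vSVZ gave 0 with DESeq2, the stricter call or no mouse block (where Cdkn1a was not tested), and 0 to 1 without single mice. Age in KO activated cells gave 0 to 2 without single mice. The cause of these shifts was not tested.

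The Ccnd2 share in quiescent cells was 83.4% with doublets kept. In activated cells at resolution 0.5 the shares of Ccnd1, Ccnd2 and Ccnd3 were 1.76%, 97.7% and 0.537%, and the Ccnd1 share in neuroblast-like cells as a mean over cells was 0.0623%. OPC-like against oligodendrocyte-like cells and comparisons with WT old activated cells by mouse could not be fitted because too few sums held 20 cells. The stricter hashtag call in activated and neuroblast-like cells and resolution 0.5 in activated cells by mouse gave no fit either. RoB and vSVZ were paired within each mouse. For age and genotype no paired analysis was possible because mouse numbers do not pair animals across groups.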
